A study of Mus musculus with 22 samples.

Results

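Stat5a, Stat5b and 7 further genes of cytokine and hormone signalling (Stat3, Prlr, Ghr, Cish, Socs2, Socs3 and Jak2) were followed in the epithelium of the fetal mouse urogenital sinus, the structure from which the prostate buds in males. Probe sets were chosen by their name and their mean signal: the probe set had to name that gene alone, and of several the one with the highest mean over the 22 arrays was to be taken. Each gene had at most 1, so the mean decided nothing. Of the 9 genes, 8 had such a probe set and all 8 passed the filter on dim signal, among 19050 genes that passed in all. Prlr had no probe set of its own name and was not analysed here. The list was drawn up with earlier results of these data known, so the tests below describe these arrays and are not independent evidence.

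The arrays fell into 4 groups of C57BL/6J fetuses at E16.75, counted in days of embryonic development. They were 6 male knockouts and 6 male littermate controls, and 5 female knockouts and 5 female littermate controls. Knockouts were ShhCre/+; Sox9fl/fl, so Cre recombinase was made where Shh is active and both alleles of Sox9, a transcription factor gene, were floxed. Controls were Shh+/+; Sox9+/fl, so they carried 1 floxed Sox9 allele and no Cre, and the genotypes differed at Shh as well as at Sox9. Enzymes loosened the tissue, the mesenchyme was separated under a microscope and the epithelium of bladder and urethra was taken off. The labels call the arrays biological replicates but do not say whether 1 sinus or a pool went onto an array, nor which fetuses shared a litter. P-values therefore measure the spread between these arrays.

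In this pathway a hormone or cytokine brings its receptors together, and Janus kinases (JAKs) bound to them phosphorylate STAT proteins, which pair, enter the nucleus and switch on target genes. STAT5A and STAT5B are closely related proteins that act below the prolactin and growth hormone receptors and many cytokine receptors. The target genes Cish, Socs2 and Socs3 encode inhibitors that feed back on the receptors and JAKs. In the mouse prostate, prolactin acts on the epithelium through STAT5.

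The promoter windows below, from RefSeq on build GRCm38.p6, cover 250 bases before and 50 bases after an annotated start. By symbol, 8 of the 9 genes matched the promoter table, all but Socs2. Stat5a and Stat5b are shown because both were higher in males. The Stat5a window is chr11:100860234-100860533 on the plus strand and the Stat5b window is chr11:100822521-100822820 on the minus strand, each at 1 of the gene's 2 listed starts and together the pair with the best alignment score among the 4 possible. Capitals mark the stretch that a local alignment found in common, 102 bases in each, with 83 identical bases over 104 alignment columns (79.8%) and a longest exact run of 16 bases.
Stat5a: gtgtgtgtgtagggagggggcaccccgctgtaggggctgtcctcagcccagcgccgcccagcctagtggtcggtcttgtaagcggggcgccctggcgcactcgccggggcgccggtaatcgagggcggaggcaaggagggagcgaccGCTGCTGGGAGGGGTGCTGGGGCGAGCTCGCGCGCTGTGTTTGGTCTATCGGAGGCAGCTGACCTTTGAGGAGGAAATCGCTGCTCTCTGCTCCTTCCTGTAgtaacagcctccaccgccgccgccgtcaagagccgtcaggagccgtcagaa
Stat5b: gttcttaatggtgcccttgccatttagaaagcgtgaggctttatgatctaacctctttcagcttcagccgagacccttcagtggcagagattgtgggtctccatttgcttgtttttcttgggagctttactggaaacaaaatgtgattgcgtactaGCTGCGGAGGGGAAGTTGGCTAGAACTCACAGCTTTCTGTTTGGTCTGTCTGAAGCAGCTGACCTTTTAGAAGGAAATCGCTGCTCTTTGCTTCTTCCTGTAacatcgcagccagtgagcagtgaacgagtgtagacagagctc
Counted from 0 at the annotated start, the shared stretch ran from -103 to -2 in Stat5a and from -94 to 7 in Stat5b.

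Cish and Socs3 are shown because their windows hold the letters TTCNNNGAA, the core that STAT dimers can bind, known as a GAS element. The letters read the same on both strands. The Cish window is chr9:107296409-107296708 on the plus strand and the Socs3 window is chr11:117969317-117969616 on the minus strand, with matches in capitals.
Cish: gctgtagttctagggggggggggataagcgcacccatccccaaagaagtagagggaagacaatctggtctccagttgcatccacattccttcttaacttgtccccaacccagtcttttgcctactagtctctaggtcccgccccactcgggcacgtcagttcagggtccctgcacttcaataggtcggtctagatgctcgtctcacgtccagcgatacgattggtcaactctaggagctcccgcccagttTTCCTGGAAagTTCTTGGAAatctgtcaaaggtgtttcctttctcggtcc
Socs3: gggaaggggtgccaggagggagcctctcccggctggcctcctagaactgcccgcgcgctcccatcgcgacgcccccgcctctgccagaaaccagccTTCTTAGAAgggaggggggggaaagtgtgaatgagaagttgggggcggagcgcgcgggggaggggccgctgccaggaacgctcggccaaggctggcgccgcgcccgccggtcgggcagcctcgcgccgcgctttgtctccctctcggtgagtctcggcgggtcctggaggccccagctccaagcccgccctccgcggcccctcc
Cish held 2 matches close after its start, and Socs3 held 1 that began at -154. Such letters stood in 2726 of 32851 windows of this length (8.3%). Among the other windows of the listed genes, 1 of 3 for Prlr held a match, and none did in the 2 of Stat5a, the 2 of Stat5b, the 2 of Ghr, the 1 of Stat3 and the 1 of Jak2. TGTTCT, 6 letters that the androgen receptor can bind, searched on both strands, stood in 19% of all windows. It was found in the Stat3 window and in 1 Prlr window, and in no window of Stat5a or Stat5b. Such matches describe letters in these windows and do not show binding.

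Values are the deposited log2 signals, which ran from 1.59 to 14.23, with array medians of 5.1 to 5.27. An array's probe set has its own brightness, so differences were read between groups. Levels of different genes were not used to compare their amounts of RNA. Sox9, the targeted gene, averaged 8.26 ± 0.14 in male knockouts and 9.33 ± 0.21 in male controls (SD, n = 6 each). In females it averaged 7.89 ± 0.09 in knockouts and 8.89 ± 0.11 in controls (SD, n = 5 each). Sox9 was therefore lower in both knockout groups, without overlap, by a log2 difference of -1.07 in males and -1.0 in females. The position of its probes relative to the floxed part was not known. Shh was also lower in knockouts, by a log2 difference of -0.45 in males and -0.56 in females, with limma adjusted p-values of 0.00874 in males and 0.0128 in females. Its call was lost in males with array weights (limma adjusted p of 0.0517) and in females without female knockout replicate 1 or 4 or female control replicate 3 or 5 (up to 0.0734), when the model held female arrays alone (0.199) or with the immune mean as a covariate (0.131). Epithelial markers, 11 measured genes of a list of 12, had a mean of 11.23 to 11.34 on the arrays, well above the array medians. A mesenchyme list, with 8 of 12 genes measured, averaged 6.75 to 7.23 on 21 arrays and 7.94 on male control replicate 6, which also had the highest mean of 6 of 7 smooth muscle genes, 7.11.

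Stat5a and Stat5b were higher in males than in females in both genotypes, by about 1 log2 unit for Stat5a and somewhat less for Stat5b. Stat3 and the growth hormone receptor gene Ghr did not pass the test between the sexes. Knockout of Sox9 changed none of the 8 measured genes past the threshold in either sex.

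Stat5a in males had a lowest value of 9.11, a median of 9.35 and a highest value of 9.51 in knockouts, against 9.11, 9.32 and 9.38 in controls. In females Stat5a had 8.38, 8.19, 8.33, 8.28 and 8.29 in knockouts, against 8.19, 8.31, 8.37, 8.40 and 8.21 in controls. Every male array lay above every female array, while the genotypes overlapped within each sex. By group mean the order was male knockout, 9.32 ± 0.14, male control, 9.27 ± 0.13, then both female groups, 8.30 ± 0.07 in knockouts and 8.30 ± 0.09 in controls (SD, n = 6 in each male and 5 in each female group). Only the step between the sexes exceeded the spread.

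The male minus female log2 difference of Stat5a was 1.02 ± 0.0678 (SE) in knockouts, a fold of 2.03, with an adjusted p of 6.21e-10 in limma's moderated test over all 19050 genes. In controls it was 0.97 ± 0.0678 (SE), a fold of 1.96, with a limma adjusted p of 1.46e-09. Ranked from the most male-high gene down, Stat5a stood at place 32 in knockouts and 33 in controls.

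Stat5b in males had a lowest value of 9.46, a median of 9.64 and a highest value of 9.72 in knockouts, against 9.40, 9.55 and 9.65 in controls. Among females Stat5b had 8.86, 8.74, 8.97, 8.92 and 8.86 in knockouts, against 8.93, 9.02, 8.91, 8.99 and 8.83 in controls. Here too the lowest male array lay above the highest female array, and the genotypes overlapped. The male minus female difference was 0.73 ± 0.0569 (SE) in knockouts, a fold of 1.66 with a limma adjusted p of 9.64e-09. For controls it was 0.61 ± 0.0569 (SE), a fold of 1.52 with a limma adjusted p of 1.71e-07. These put Stat5b at place 86 in knockouts and 125 in controls.

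**Figure D1:**
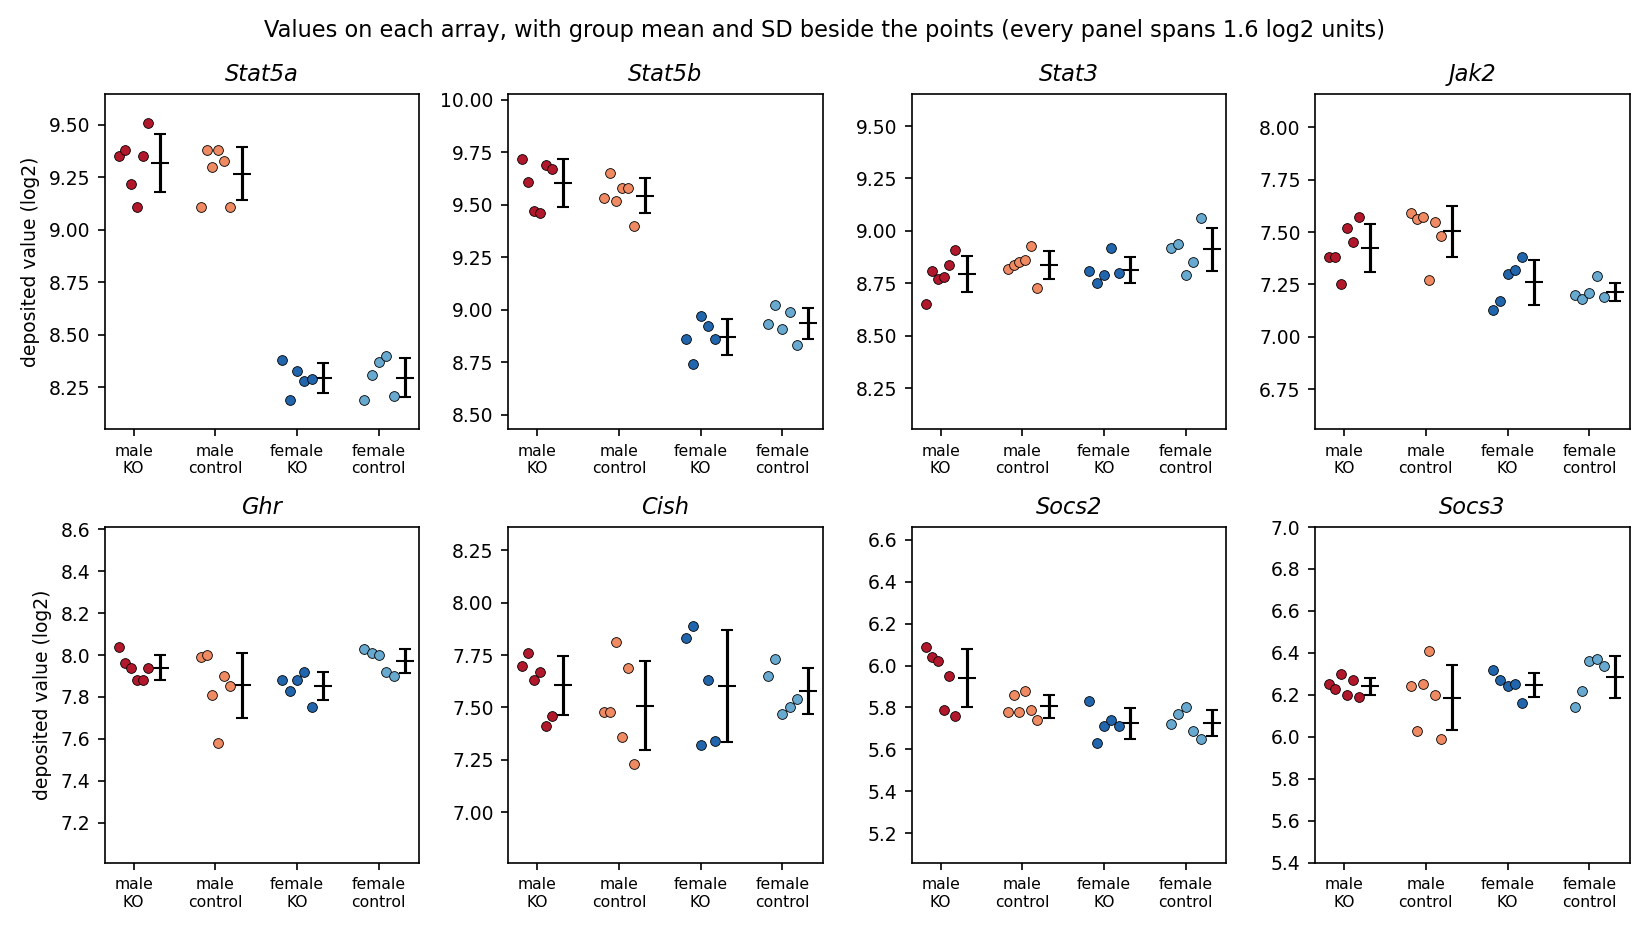
Deposited log2 value of the 8 measured genes on each of the 22 arrays (points), with the group mean and SD beside them; the vertical axis spans the same number of log2 units in every panel. For Stat5a the male arrays, at 9.11 to 9.51, lie above the female arrays, at 8.19 to 8.40, and in the other panels but Stat5b the sexes overlap.

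Across the 19050 genes, 7.19% passed the test between the sexes in knockouts (3.66% higher in males and 3.52% lower) and 6.94% in controls (3.27% higher and 3.67% lower). Groups did not overlap for 5.82% of genes in knockouts and 5.64% in controls. Of the 8 measured genes, 3 passed in each genotype, all higher in males, and 2 did not overlap, Stat5a and Stat5b. The median difference over the 8 was 0.12 in knockouts and 0.00 in controls, against -0.01 over all genes in both. In bulk tissue of this kind, a change in the share of cells that make an RNA and a change in the RNA per cell cannot be told apart.

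Male control replicate 6, the array with the highest mesenchyme mean, had the lowest Stat5b value of its group, 9.40, and shared the lowest Stat5a value, 9.11. Without it the male minus female difference in controls was 1.01 for Stat5a and 0.64 for Stat5b. With the mesenchyme mean as a covariate, the difference was 1.03 in knockouts and 0.98 in controls for Stat5a, and 0.73 in knockouts and 0.61 in controls for Stat5b. The epithelial list covered 11.23 to 11.31 on male arrays and 11.24 to 11.34 on female arrays, but single markers differed between the sexes. Of its 11 measured genes, 6 passed in knockouts, 3 higher and 3 lower in males, and 3 passed in controls, 1 higher and 2 lower. Of 8 mesenchyme genes, 1 passed in knockouts, Lum, higher by 0.57, and 1 in controls, Dcn, at -0.36. The median over the 8 was -0.01 in knockouts and 0.10 in controls. The mean of 7 urothelium genes ran from 9.82 to 10.42 in male knockouts and 9.74 to 10.20 in male controls. In females this mean ran from 9.83 to 10.43 in knockouts and 9.64 to 10.08 in controls. On all arrays it lay well above the array median. Of the 7 urothelium genes, Psca alone passed between the sexes, higher in males by 0.93 in knockouts and 0.82 in controls. The median over the 7 went the other way, at -0.19 in knockouts, with a lowest of -0.52, and -0.02 in controls. The part of the epithelial and urothelial markers in the Stat5a and Stat5b differences was not tested.

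The sex difference in log2 signal was larger for Stat5a than for Stat5b, by a comparison chosen after the values were seen. Taking Stat5b from Stat5a on each array gave -0.28 ± 0.08 in male and -0.58 ± 0.07 in female knockouts, and -0.27 ± 0.08 in male and -0.64 ± 0.09 in female controls (SD, n = 6 in each male and 5 in each female group). The sexes differed by 0.29 in knockouts and by 0.37 in controls, without overlap. Each had a two-sided exact permutation p of 0.00433, the smallest that its 462 regroupings allow. Between the genotypes the same quantity gave exact permutation p-values of 0.833 in males and 0.23 in females. Whether probes of the 1 gene also catch RNA of the other was not tested.

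Stat3 encodes the STAT that acts below interleukin 6 and related cytokines and lies beside Stat5a on the chromosome. It averaged 8.79 ± 0.09 in male knockouts, 8.84 ± 0.06 in male controls, 8.81 ± 0.06 in female knockouts and 8.91 ± 0.10 in female controls (SD, n = 6 in each male and 5 in each female group). All 4 groups overlapped. The male minus female difference was -0.02 in knockouts (95% interval -0.13 to 0.09) and -0.07 in controls (95% interval -0.18 to 0.04), so a difference of the size seen for Stat5a lay outside both intervals.

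Jak2, the kinase that the growth hormone and prolactin receptors use, had a lowest value of 7.25, a median of 7.41 and a highest value of 7.57 in male knockouts, against 7.27, 7.55 and 7.59 in male controls. Female knockouts had 7.13, 7.17, 7.30, 7.32 and 7.38, and female controls had 7.20, 7.18, 7.21, 7.29 and 7.19. Male controls lay above female controls save 1 array, while knockouts of the 2 sexes overlapped more widely. In controls Jak2 was higher in males by 0.29 ± 0.0629 (SE), a fold of 1.22 with a limma adjusted p of 0.00448. In knockouts the difference was 0.16 ± 0.0629 (SE), with a limma adjusted p of 0.154. The test of the change between genotypes did not separate these, at -0.13 (95% interval -0.31 to 0.06) with a limma adjusted p of 0.997.

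Ghr, the growth hormone receptor gene, had a lowest value of 7.88, a median of 7.94 and a highest value of 8.04 in male knockouts, against 7.58, 7.88 and 8.0 in male controls. In female knockouts it had 7.88, 7.83, 7.88, 7.92 and 7.75, against 8.03, 8.01, 8.0, 7.92 and 7.90 in female controls. The groups overlapped in every comparison. The knockout minus control difference was 0.09 in males and -0.12 in females. The difference between these effects, 0.21 (95% interval 0.03 to 0.38), had an unadjusted p of 0.0219 and an adjusted p of 0.997 in limma, so it did not pass.

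Cish, whose protein competes for STAT5 docking sites on receptors, averaged 7.60 ± 0.14 in male knockouts, 7.51 ± 0.21 in male controls, 7.60 ± 0.27 in female knockouts and 7.58 ± 0.11 in female controls (SD, n = 6 in each male and 5 in each female group). Its values ran from 7.41 to 7.76 in male knockouts, 7.23 to 7.81 in male controls, 7.32 to 7.89 in female knockouts and 7.47 to 7.73 in female controls, so all groups overlapped. The male minus female difference was 0.00 in knockouts (95% interval -0.22 to 0.22) and -0.07 in controls (95% interval -0.29 to 0.15). Both intervals exclude a difference as large as that of Stat5a.

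Socs2, whose protein restrains growth hormone signalling, had a lowest value of 5.76, a median of 5.98 and a highest value of 6.09 in male knockouts, against 5.74, 5.78 and 5.88 in male controls. Female knockouts had 5.83, 5.63, 5.71, 5.74 and 5.71, and female controls had 5.72, 5.77, 5.80, 5.69 and 5.65. Of the 6 male knockouts, 4, from 5.95 to 6.09, lay above every array of the other groups. In knockouts Socs2 was higher in males by 0.22 ± 0.0562 (SE), a fold of 1.16 with a limma adjusted p of 0.0153. This did not hold without female knockout replicate 2, when the difference was 0.20 with a limma adjusted p of 0.0564, nor with only the 11 knockout arrays in the model, when the limma adjusted p was 0.0767. In controls the difference was 0.08, with a limma adjusted p of 0.486, and the difference between these sex differences, 0.14, had a limma adjusted p of 0.997.

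Socs3, an inhibitor that acts mainly on receptors of the gp130 family and on JAKs, averaged 6.24 ± 0.04 in male knockouts, 6.19 ± 0.15 in male controls, 6.25 ± 0.06 in female knockouts and 6.29 ± 0.10 in female controls (SD, n = 6 in each male and 5 in each female group). Its groups overlapped throughout. The male minus female difference was -0.01 in knockouts and -0.10 in controls, with limma adjusted p-values of 0.986 in knockouts and 0.41 in controls.

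**Figure D2:**
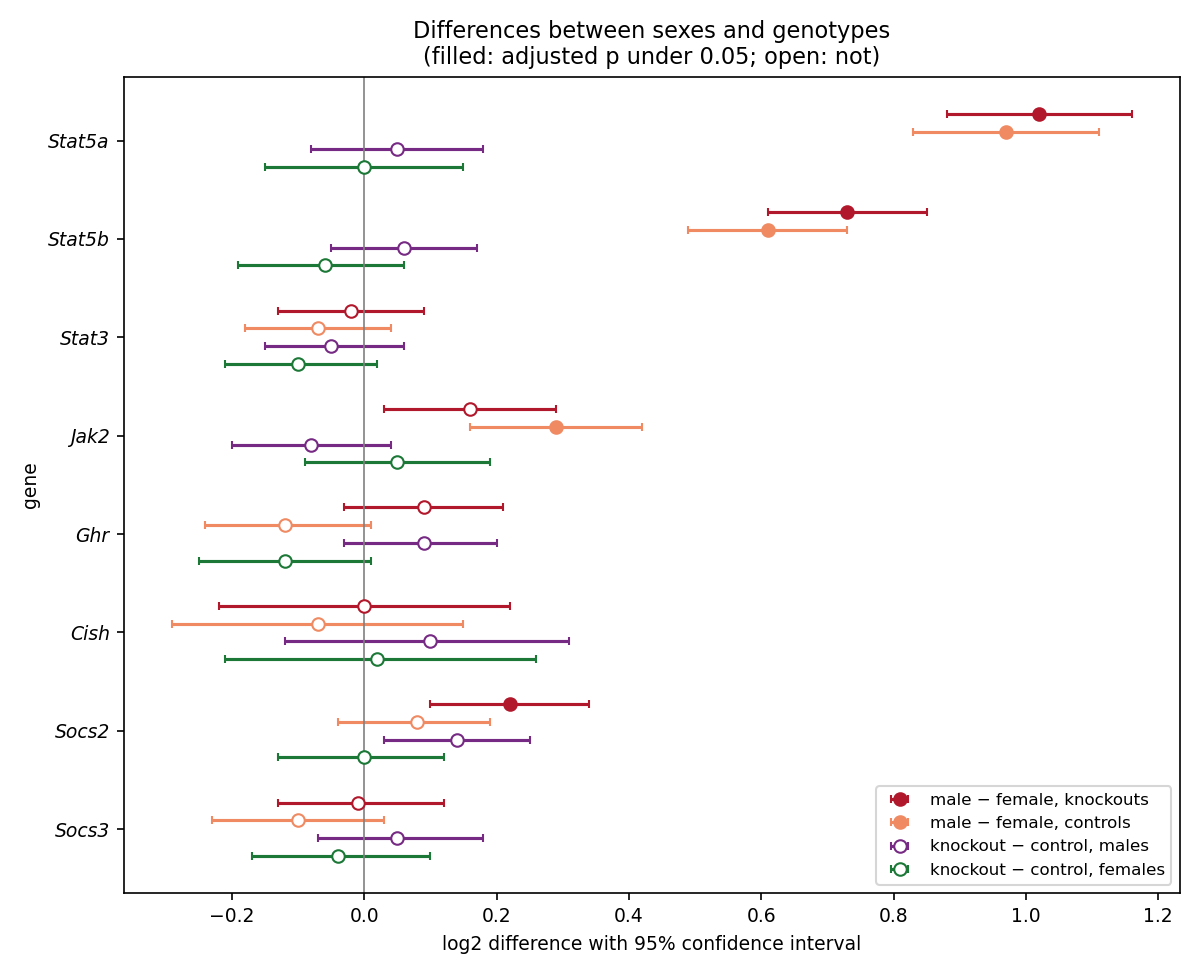
Log2 difference (points) with its 95% confidence interval (bars) for the 8 measured genes, for males against females in each genotype and for knockouts against controls in each sex; filled points passed an adjusted p of 0.05. Stat5a and Stat5b stand at 0.61 to 1.02 between the sexes, while every knockout against control difference lies between -0.12 and 0.14.

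For the effect of the knockout itself, the question that the study's design poses, the 8 genes spanned -0.08 to 0.14 in males and -0.12 to 0.05 in females. In limma 0 of 8 passed in males, where 0.199% of all genes did, and 0 of 8 in females, where 0.0315% did. Averaged over the sexes, 0 of 8 passed against 0.247% of all genes. Before adjustment 1 gene passed in males, Socs2, at 0.14 with an unadjusted limma p of 0.0175 and an adjusted p of 0.667. None did in females or in the average. No measured gene had groups that did not overlap, against 0.42% of all genes in males and 1.39% in females. The difference between the male and the female knockout effect passed for 0 of 8 and for 0.00525% of all genes, and 1 of 8, Ghr, had an unadjusted p under 0.05.

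For Stat5a the knockout minus control difference was 0.05 in males (95% interval -0.08 to 0.18) and -0.00 in females (95% interval -0.15 to 0.15). For Stat5b it was 0.06 in males (95% interval -0.05 to 0.17) and -0.06 in females (95% interval -0.19 to 0.06). Each interval bounds the change at well under the difference between the sexes. The change in sex difference with genotype was 0.05 for Stat5a (95% interval -0.15 to 0.25) and 0.12 for Stat5b (95% interval -0.04 to 0.29).

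**Figure D3:**
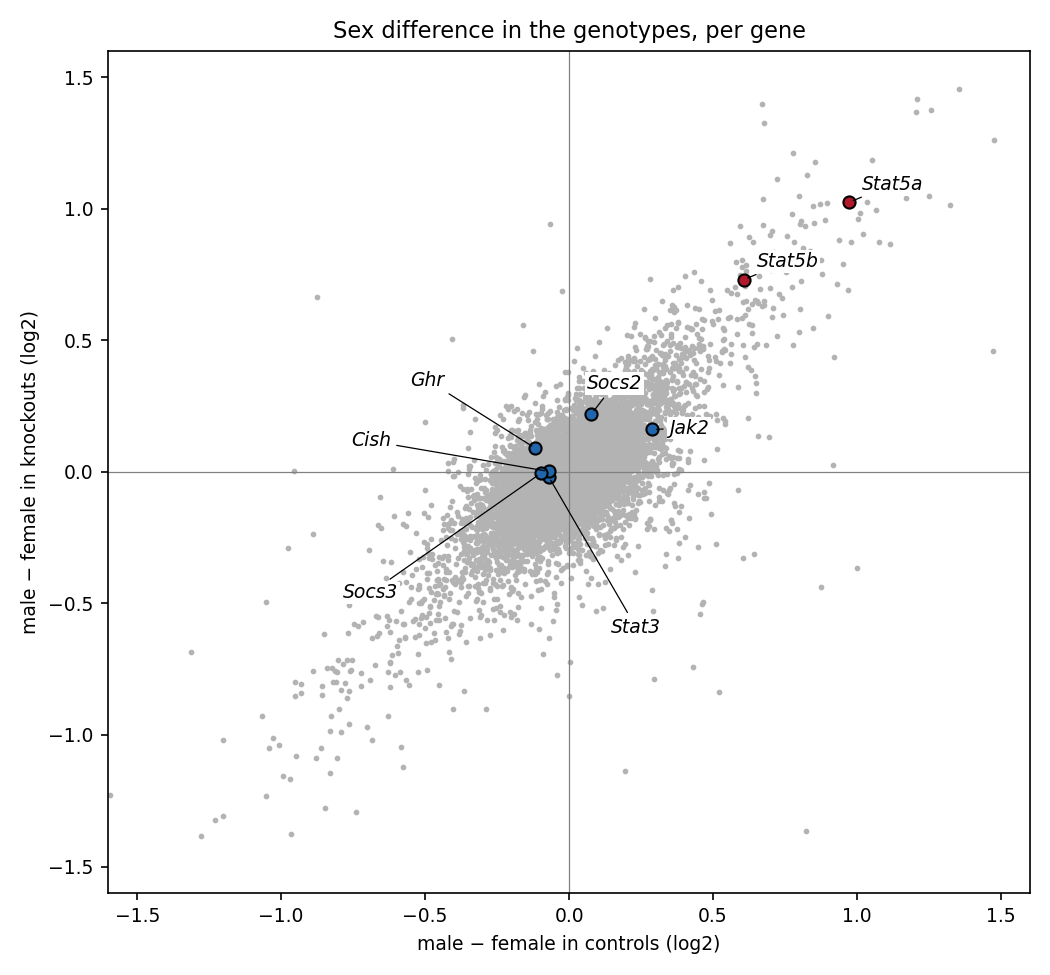
Male minus female log2 difference of every tested gene in knockouts (vertical axis) and in controls (horizontal axis), with the 8 measured genes named; 29 genes lie outside the axes. Stat5a, at 1.02 in knockouts and 0.97 in controls, and Stat5b, at 0.73 in knockouts and 0.61 in controls, lie towards the upper right corner, and the other named genes lie near the centre.

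The wider pathway was read from 11 lists of 131 genes, of which 122 are not among the 9 genes above and 79 of these were measured. None of the 79 passed between the genotypes in either sex, in their average or in the test of the difference between the sexes' effects in limma. At an unadjusted limma p under 0.05 there were 3 in males, 3 in females, 5 in the average and 1 in the difference between effects. Over all genes, 6.27% in males, 5.46% in females, 7.19% in the average and 4.04% in the difference between effects had such a p. Between the sexes, 17.2% of all genes in knockouts and 19.1% in controls did, the background for the counts at an unadjusted p below. Of the 79, 25 in knockouts and 18 in controls had such a p between the sexes. Between the sexes, 9 of the 79 passed in knockouts (11.4%), 5 higher and 4 lower in males, and 7 passed in controls (8.86%), 4 higher and 3 lower. Over all genes these shares were 7.19% in knockouts and 6.94% in controls. Their median difference was -0.01 in knockouts and -0.03 in controls, against -0.01 over all genes in both.

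Among receptors, Il6st, the gene of the shared signal chain gp130, averaged 10.04 ± 0.15 in male and 9.56 ± 0.07 in female knockouts, and 9.82 ± 0.07 in male and 9.47 ± 0.05 in female controls (SD, n = 6 in each male and 5 in each female group). It was higher in males without overlap, by 0.48 in knockouts with a limma adjusted p of 6.96e-06 and by 0.35 in controls with a limma adjusted p of 0.000396. The rest of the gp130 receptor list, 4 measured genes of 7 listed with Il6st, did not pass. Counting Il6st, 3 of 5 measured genes in knockouts and 2 in controls had an unadjusted limma p under 0.05. Il6ra was lower in males, at -0.26 in knockouts and -0.27 in controls (unadjusted limma p of 0.0242 and 0.0214). Osmr was lower in males in knockouts, at -0.24 (unadjusted limma p of 0.026). In males Il6st was 0.22 higher in knockouts than in controls, with an unadjusted p of 0.000699 and a limma adjusted p of 0.171.

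Il4ra, the interleukin 4 receptor chain, was lower in males, averaging 7.35 ± 0.17 in male and 7.84 ± 0.14 in female knockouts, and 7.49 ± 0.09 in male and 7.88 ± 0.08 in female controls (SD, n = 6 in each male and 5 in each female group). Its difference was -0.49 in knockouts and -0.38 in controls, with limma adjusted p-values of 0.000109 in knockouts and 0.00201 in controls. It was the only 1 of 10 measured genes to pass in the list of other class I receptors. Il22ra1, the interleukin 22 receptor chain, differed by -0.38 in knockouts and -0.42 in controls, with limma adjusted p-values of 0.00743 in knockouts and 0.00386 in controls. It was alone among 9 measured class II receptors. Of the hormone and homodimeric receptors, 0 of 3 measured genes passed between the sexes in limma, and 1 in knockouts and 0 in controls had an unadjusted p under 0.05. Epor, the erythropoietin receptor gene, differed by -0.10 in knockouts and -0.10 in controls. Csf3r, the receptor gene of a granulocyte growth factor, differed by -0.15 in knockouts and -0.09 in controls. Its group means, 5.15 to 5.31, lay near the array medians. Lepr was too dim to test.

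Of the JAK and STAT genes, 8 of 11 were measured. Jak1, the kinase that many gp130 and interferon receptors use, was higher in males by 0.18 in knockouts and 0.14 in controls, with limma adjusted p-values of 0.00276 in knockouts and 0.0181 in controls. The call in controls was lost when female control replicate 5 was left out, at 0.13 with a limma adjusted p of 0.0618, and with a model of the control arrays alone, with a limma adjusted p of 0.0765. Stat6, which acts below interleukin 4, differed by 0.06 in knockouts and 0.02 in controls and did not pass. Jak3 had no probe set of its own name and Stat4 was too dim.

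All 8 genes of the SOCS list were measured, and 1 passed, Socs2 in knockouts. The 8 genes spanned -0.06 to 0.22 in knockouts and -0.10 to 0.08 in controls. Of 9 phosphatase and PIAS genes, whose proteins damp the pathway, 8 were measured and 0 passed in limma, with a span of -0.15 to 0.15 in knockouts and -0.03 to 0.10 in controls. Of these, 3 in knockouts and 0 in controls had an unadjusted p under 0.05, against 17.2% of all genes in knockouts and 19.1% in controls. Ligand genes were mostly not measurable in this epithelium, with 12 of 24 too dim, among them Prl and Il6. Of the 10 measured ligand genes 0 passed in limma, with 2 at an unadjusted p under 0.05 in knockouts and 0 in controls, and the span was -0.16 to 0.02 in knockouts and -0.15 to -0.00 in controls. Some of these lay near the array medians of 5.1 to 5.27, such as Epo, with group means of 5.27 to 5.34, so dim signal limits them too.

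The list of genes known to answer STAT5 had 13 of 17 measured. Between the sexes 3 passed in knockouts, 2 higher and 1 lower in males, and 1 passed in controls, higher, against 7.19% of all genes in knockouts and 6.94% in controls. At an unadjusted limma p under 0.05 there were 6 in knockouts and 7 in controls, against 17.2% of all genes in knockouts and 19.1% in controls. The median was -0.00 in knockouts and -0.10 in controls, against -0.01 over all genes in both. In controls Igfals, at -0.38, and Elf5, at 0.24, narrowly missed the threshold. Their limma adjusted p-values were 0.0516 for Igfals and 0.054 for Elf5. Ccnd2, a cell cycle cyclin gene, was higher in males by 0.20 in knockouts and 0.21 in controls, with limma adjusted p-values of 0.024 in knockouts and 0.019 in controls. Its call was lost without male knockout replicate 6 or female knockout replicate 1, 2 or 4 (limma adjusted p of up to 0.0694), and in controls without female control replicate 2 or 5 (up to 0.0637) or with a model of the control arrays alone (0.084). Igf1, the growth factor gene that growth hormone raises in liver, was lower in males by a difference of -0.81 in knockouts with a limma adjusted p of 0.000737, and of -0.45 in controls with a limma adjusted p of 0.0694. In controls it passed without male control replicate 6, at -0.55 with a limma adjusted p of 0.017, and without male control replicate 2, at -0.52 with a limma adjusted p of 0.0419. With the mesenchyme mean as a covariate it passed there too, at -0.48 with a limma adjusted p of 0.0274. Socs2 is the third and is described above, and Cish is also on this list. Csn2, the milk protein gene used as a STAT5 readout in mammary gland, was too dim.

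Among 11 measured genes of 14 known to answer STAT3, Myc, a growth regulator, averaged 8.19 ± 0.20 in male and 7.54 ± 0.18 in female knockouts, and 8.08 ± 0.22 in male and 7.58 ± 0.09 in female controls (SD, n = 6 in each male and 5 in each female group). It was higher in males by 0.65 in knockouts and 0.50 in controls, with limma adjusted p-values of 0.000137 in knockouts and 0.00276 in controls. Il4ra, on this list too, was the other gene to pass, and it was lower. Of the 8 measured interferon response genes of 14, Usp18, which encodes an inhibitor of the type I interferon receptor, was lower in males by a difference of -0.56 in knockouts and -0.54 in controls, with limma adjusted p-values of 2.33e-05 in knockouts and 4.76e-05 in controls. Irf9, whose protein joins STAT2 in the complex that switches on interferon genes, was higher in males in knockouts by 0.31 with a limma adjusted p of 0.0311, a call lost without male knockout replicate 1, 4 or 6 or female knockout replicate 2, 4 or 5 (up to 0.106), or with a model of the knockout arrays alone (0.124). In controls it differed by 0.17, with a limma adjusted p of 0.313.

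Of the 11 measured immune genes, 0 passed between the sexes in limma, with 2 at an unadjusted p under 0.05 in knockouts and 0 in controls, and their mean ran from 5.95 to 6.08 in male knockouts, 5.89 to 6.19 in male controls, 5.97 to 6.34 in female knockouts and 5.98 to 6.12 in female controls. With the immune mean as a covariate, the calls of Il22ra1, Irf9 and Ccnd2 between the sexes in knockouts were lost, with limma adjusted p-values of 0.0554 for Il22ra1, 0.125 for Irf9 and 0.182 for Ccnd2.

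**Figure D4:**
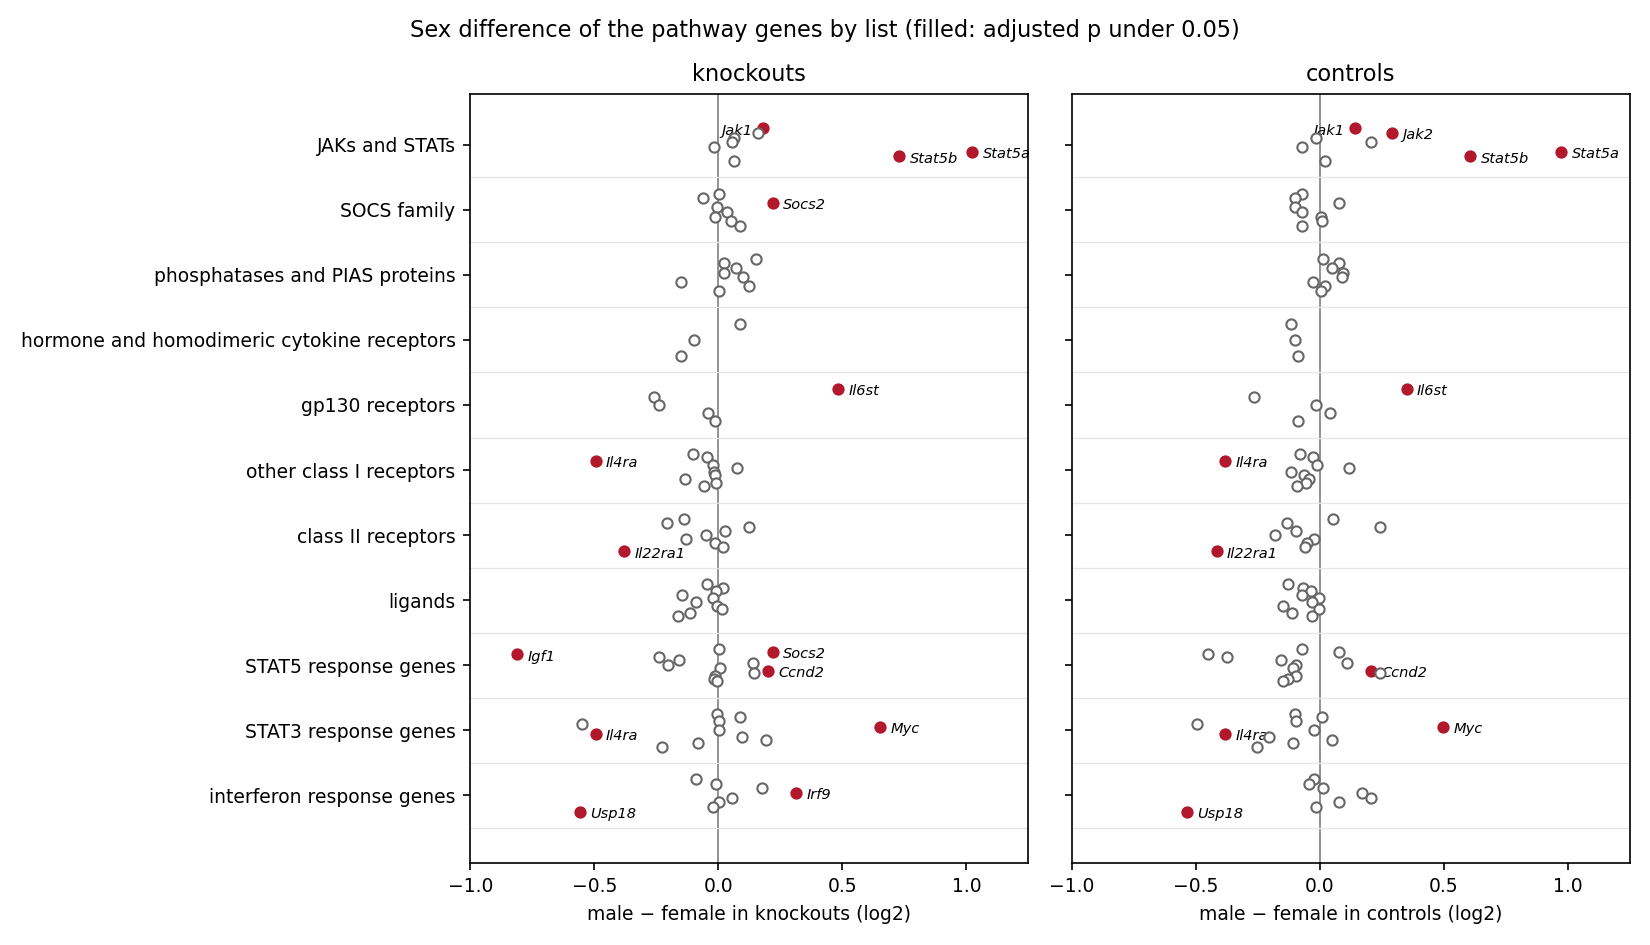
Male minus female log2 difference of each measured gene of the 11 pathway lists, in knockouts (left) and in controls (right); filled points passed an adjusted p of 0.05 and are named. Stat5a and Stat5b lie furthest to the right in both panels, and most genes lie close to 0.

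Whether the genes moved together from array to array was asked after each value had lost its group mean, over 22 arrays and 8 pairs of genes. Stat5a and Stat5b had a Pearson r of 0.73 with a permutation p of 0.0007, or 0.0056 after Benjamini-Hochberg adjustment over the 8 pairs. Spearman's rho was 0.59 with a permutation p of 0.00893, or 0.0714 adjusted. Without the 2 arrays farthest from the median of Stat5a, r was 0.60. Males alone gave r = 0.80 over 12 arrays and females alone r = 0.56 over 10 arrays, with permutation p-values of 0.00329 in males and 0.111 in females. The other 7 pairs set Stat5a and Stat5b each against Cish and Socs2, Stat5a against Stat3, Ghr against Socs2, and Stat3 against Socs3. Their Pearson r lay between -0.14 and 0.39, with adjusted permutation p-values of at least 0.591. Their Spearman rho lay between -0.16 and 0.37, with adjusted permutation p-values of at least 0.282. Such correlations also hold what arrays share in RNA quality and tissue content.

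By the same group-centred r over 22 arrays, the genes most like Stat5a were Slc10a5 (r = 0.86), Nucb1 (r = 0.80), Eps8l2 (r = 0.80), Bricd5 (r = 0.79) and Tmc7 (r = 0.78). Those most like Stat5b were Atg13 (r = 0.81), Gm18588 (r = 0.81), Ddx58 (r = 0.80), Lurap1 (r = 0.79) and Niban2 (r = 0.78). For Cish they were Ccdc137 (r = 0.78), Terc (r = 0.74), C3ar1 (r = 0.73), Mir24-2 (r = 0.72) and 9330151L19Rik (r = 0.71). No gene was on more than 1 of these lists, and values this high are the top of 19050 candidates.

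Stat5b, Stat5a and Stat3 lie in a row on chromosome 11, and the 5 protein-coding genes on each side were read from the same fit, a comparison chosen after the values were seen. Of the 10, 9 were measured and Hcrt was too dim. Cavin1, which encodes a protein of membrane caveolae and lies next to Stat3, was higher in males by 0.41 in knockouts and 0.31 in controls, with limma adjusted p-values of 0.000631 in knockouts and 0.01 in controls. The nearest gene on the other side, Ghdc, differed by -0.08 in knockouts and -0.01 in controls and did not pass. The other 7, Hspb9, Rab5c, Kcnh4, Atp6v0a1, Naglu, Hsd17b1 and Coasy, also did not pass, and none of the 9 reached the difference of Stat5a or Stat5b.

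**Figure D5:**
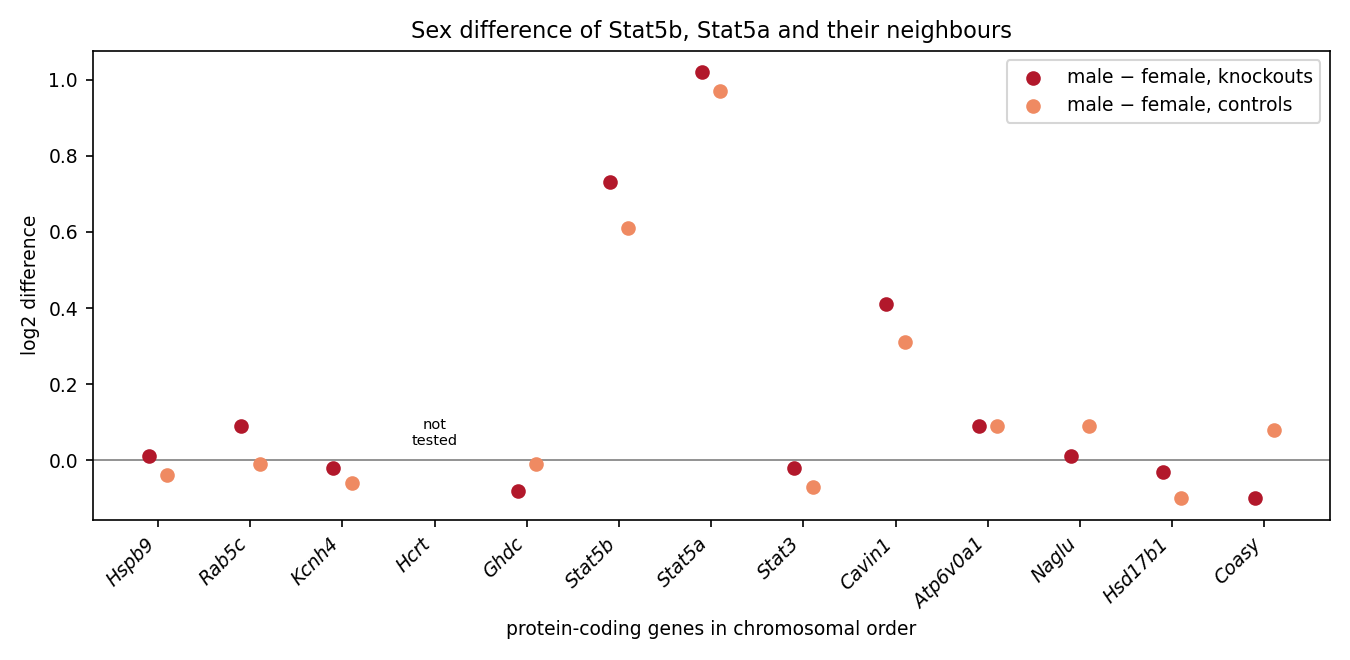
Male minus female log2 difference of Stat5b, Stat5a, Stat3 and 10 neighbours in their order along chromosome 11, in knockouts and in controls. Stat5b and Stat5a stand at 0.61 to 1.02, Cavin1 at 0.41 in knockouts and 0.31 in controls, and the remaining measured genes between -0.10 and 0.09.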

How the data were processed

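Per the labels' protocols, biotin-labelled total RNA of 22 urogenital sinus epithelium samples was hybridised to Affymetrix whole-transcript arrays. The authors deposited log2 values for 72688 probe sets. How background was corrected and arrays were normalized and summarised is not given in the sources used here. A platform table gave exactly 1 symbol to 30439 of 65770 transcript clusters, several to 2146 and none to 33185, and 827 symbols were updated through RefSeq.

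Genes were kept if their probe set exceeded the array's median (percentile 50 of transcript clusters) on at least 5 arrays. A model of the 4 group means over all 22 arrays was fitted with limma 3.58.1 in R 4.3.3 (18 residual and 4.34 prior degrees of freedom). Two-sided p-values were adjusted by Benjamini-Hochberg over 19050 genes, with a threshold of 0.05, for 6 comparisons. Correlations used 100000 permutations within groups, and the exact permutation test ran over arrays. The limma fit was tested on simulated normal values for some of the 6 comparisons, with an outcome not given here. No 2 arrays agreed in more than 0.0334% of transcript clusters, so none was a duplicate. Precision is limited by how many arrays each group has.

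The genes named were the 9 listed, Sox9 and Shh, pathway genes that passed a test or up to 3 of the smallest p in a list, and the 5 genes most like Stat5a, Stat5b or Cish. Stat6, Lepr, Prl, Il6, Csn2, Jak3, Stat4, Lum, Dcn, Psca and the chromosomal neighbours were named outside this rule, after values were seen. Genes and lists were chosen with earlier results of these data known. Alternatives are listed in the closing section.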

Additional observations from a re-analysis of the deposited data

Results flagged for a closer look

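Jak2 held both values that stood apart from the rest of their group, by a test on the gap of the most extreme array. In male controls, replicate 4 was lowest, at 7.27, with the others at 7.48 to 7.59. In female controls, replicate 4 was highest, at 7.29, with the others at 7.18 to 7.21. The 8 measured genes gave 32 such groups of values, and at the 95% level used a few are flagged by chance.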

How the results depend on the processing

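Of 1556 values of the 8 measured genes under the alternatives (11 settings and 22 left-out arrays), 1554 kept their side of the threshold and 2, those of Socs2 given above, no longer passed. No value that passed changed sign. Among values that did not pass, some near 0 did, such as the female knockout effect on Cish, 0.02, which was -0.13 with the immune covariate. Stat5a ranged from 0.99 to 1.07 in knockouts and from 0.95 to 1.01 in controls, and Stat5b from 0.70 to 0.76 in knockouts and from 0.58 to 0.65 in controls, with limma adjusted p-values of at most 1.56e-05 for Stat5b and 1.62e-06 for Stat5a. A filter at the 75th percentile left Socs2 and Socs3 untested, and a model of only the arrays compared gave no averaged effect and no difference between effects. Counts over all genes moved more. For male knockout against control, 38 genes became 20 with only the arrays compared. For females, 6 became 3 with median centring, 3 with only the arrays compared, 11 with array weights, 2 with the immune covariate and 2 to 8 with an array left out. The averaged effect gave 47 genes, and 72 with array weights. The difference between the sexes' effects gave 1 gene, Gpr157, and 0 with quantile normalization, median centring, no filter, the trend and robust options or the immune covariate, 2 with array weights, and 0 to 2 with an array left out. The cause was not tested. Replicate numbers were not used to pair the samples in the main model. Of 31 same-numbered pairs, 4 had a correlation of deviations above 0.1 (range -0.423 to 0.279). Pairs with different numbers were not set beside them, so these values cannot say whether the numbers pair samples. With the replicate block the difference between effects gave 2 genes and the 8 measured genes kept every call, while Jak1 in controls (limma adjusted p of 0.0776) and Ccnd2 and Irf9 in knockouts (0.0526 for both) no longer passed. Median centring also ended these 3 calls, with limma adjusted p-values of 0.0529 for Jak1, 0.0685 for Ccnd2 and 0.0646 for Irf9. Dim signal limits Socs2 and Socs3, which of the 8 measured genes lay nearest the array medians. It also limits wider pathway genes such as Epo and Csf3r.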
